A study of Mus musculus with 8 samples.

Results

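Expression of 85 cytochrome P450 genes was compared between TGFb1-Tg lungs, where a transgene for human TGF-β1 was induced, and the lungs of littermates without it (wild type, WT). The members were every gene whose symbol in the array file was Cyp followed by digits, a letter and digits, or Cyp51, which gave 102 probes for 85 of 25734 genes, 13 of them with several probes. By P450 family, 3 genes belonged to family 1, 44 to family 2, 6 to family 3, 13 to family 4 and 19 to the others, and 84 of the 85 had enough values for a test.

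The TGFb1-Tg group held 4 lungs of mice on the B6J background, 10 weeks old, that carry a doxycycline-inducible transgene for active human TGF-β1, a cytokine that promotes scarring. The WT group held 4 lungs of B6J mice of the same age without the transgene. The protocol in the labels gives doxycycline at 1 mg/ml in drinking water and harvests from 2 to 14 days, while the file headers give doxycycline for 14 days in the TGFb1-Tg lungs and water for 14 days in the WT lungs, so that doxycycline itself and the transgene cannot be told apart if the headers are right. The promoter that drives the transgene is not given in the sources used here. Each lung RNA (Cy5) was hybridised with a pooled control RNA (Cy3) on a 2-colour Agilent array, always in this dye orientation. The labels name combined WT replicates as the pool on every array, and the headers name a pool of 4 transgenic lungs (water only) on the TGFb1-Tg arrays and one of 4 WT lungs (water only) on the WT arrays.

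Between 39039 and 39281 probes were measured per array. The pools were not the same RNA: Xist, which is transcribed from the inactive X chromosome, lay at 0.01 to 0.02 in the TGFb1-Tg set's pool and at 1.04 to 1.13 in the WT set's pool. WT replicate 1 stood apart from the other samples, with a Xist intensity of 4.6 against 0.04 or less in the other 7. Its Y-linked Ddx3y intensity was 0.04 on the brighter probe, against at least 6.83 elsewhere. Mouse Tgfb1 had sample intensities of 1.45, 1.7, 1.32 and 1.41 in TGFb1-Tg lungs and of 0.61, 0.64, 0.76 and 0.62 in WT lungs. Because of the pools, each result is given as a difference in log2 (sample over pool), TGFb1-Tg minus WT. Beside it, where named, stands the difference in quantile-normalized log2 sample intensity, which leaves the pool out and is called the direct difference. Any difference between the pools enters every difference in ratio, and the p-values do not measure it. If the headers are right, each ratio sets a lung against a pool of its own genotype, and what lung and pool share cancels out. The difference in ratio then mainly sets doxycycline-treated against water-only transgenic lungs. Only the direct difference then sets TGFb1-Tg lungs against WT lungs. A pool of all 4 WT lungs would hold Xist from WT replicate 1, as the WT set's pool did and the TGFb1-Tg set's pool did not. Whether the pools held the lungs measured here was not tested. An intensity is the authors' scaled value of a probe and has no absolute unit, so intensities of different genes are not compared. The median sample intensity was 0.13 to 0.14 on the TGFb1-Tg arrays and 0.15 to 0.18 on the WT arrays. The pool medians were 0.14 and 0.15 to 0.18, so that raw dim intensities can differ between the array sets in lung and pool alike.

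Cytochrome P450 enzymes are haem proteins that insert an oxygen atom into their substrates. Those of families 1 to 4 lie mostly in the endoplasmic reticulum, take electrons from P450 oxidoreductase, and convert drugs, inhaled chemicals, steroids and fatty acids, while many of the others make or break down sterols, bile acids, retinoids, vitamin D and steroid hormones, some of them in mitochondria. In the mouse lung the club cells of the airways are known for their high content of microsomal P450 enzymes, and alveolar and capillary cells carry some of them too.

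Of the 84 tested P450 genes, 25 fell and 9 rose at an adjusted p under 0.05 (limma, Benjamini-Hochberg over 25647 genes), and 50 did not pass. That is 29.8% lower and 10.7% higher, against 19.8% lower and 19% higher among all genes tested. Either way 40.5% of the P450 genes were called, close to the 38.8% of all genes. Larger changes were counted as well: 10 fell at least 2-fold (11.9%, against 1.6% of all genes) and 3 rose at least 2-fold (3.57%, against 1.91%). The median difference over the 84 genes was -0.01 on the log2 scale, and 0 over all genes. These shares are descriptions, since the genes were not drawn at random. Probes of the Cyp2a and Cyp2b genes may also detect each other's transcripts, so that these genes need not count separately. In bulk lung RNA, fewer cells of a type and less RNA per cell cannot be told apart, and the markers of lung cell types that moved with these genes, club cell markers among them, are given further on.

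In 50 tested genes a mean intensity of 0.1 or more was reached in some channel and group, and 24 of them fell, 8 rose and 18 did not pass. Those are 48% lower and 16% higher, against 26.3% lower and 25% higher (51.3% either way) of all genes this bright. Of the 50, 5 reached the limit only on WT arrays, and Cyp4a32 was the single called gene among them. In the 34 dimmer genes only Cyp2j5 (0.90, adjusted p = 0.0368, limma) and Cyp7a1 (-0.40, adjusted p = 0.0485, limma) were called, on intensities of 0.01 to 0.05 given to 2 decimals. Each of these calls was lost when any of 7 of the 8 arrays was left out. The other 32 dim genes include 7 of the 12 Cyp2c genes and 4 of the 6 Cyp3a genes, subfamilies best known from liver.

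**Figure D1:**
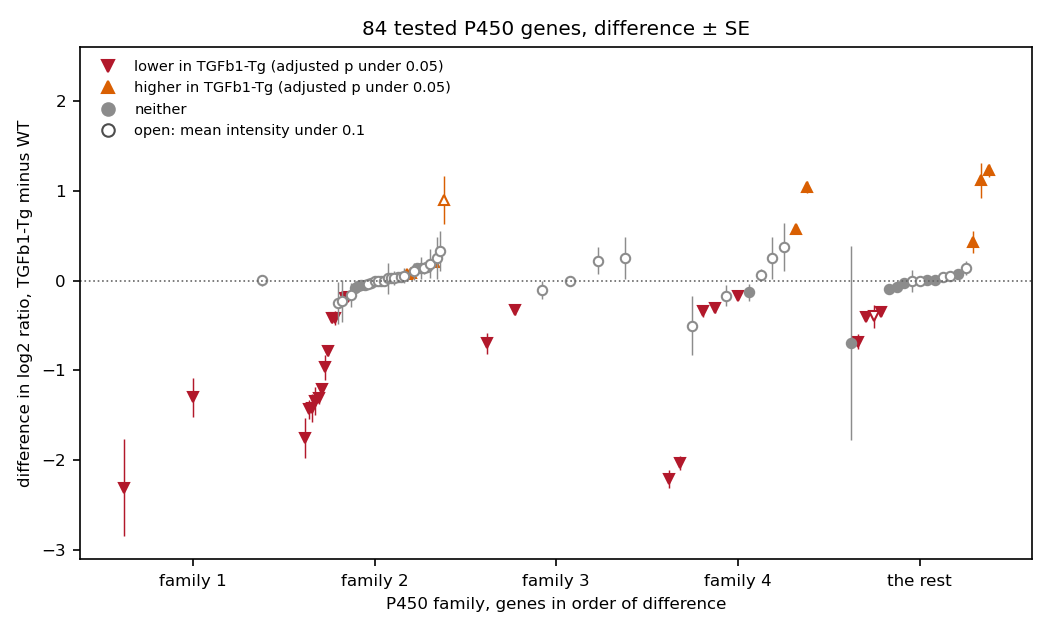
Difference in log2 (sample over pool), TGFb1-Tg minus WT, with its standard error, for the 84 tested P450 genes in order of difference within each family; triangles mark called genes and open symbols genes with a mean intensity under 0.1. The genes that fell furthest belong to families 1, 2 and 4, and most open symbols lie near 0.

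In 23 genes all 4 TGFb1-Tg ratios lay below all 4 WT ratios and in 7 above them, together 35.7% of the 84, against 37.4% of all genes. Without WT replicate 1, 23 genes were lower and 8 higher, all of them among the 25 and 9. The direct difference, available for 83 of the genes, called 19 lower and 9 higher, against 15.2% lower and 18% higher (33.2% either way) of all genes, and 18 of these 19 and 5 of these 9 were among the calls above. Over their own pool alone, 27 of the 85 genes were lower and 8 higher in TGFb1-Tg lungs, against 22.2% lower and 21.6% higher (43.8% either way) of all genes. After quantile normalization of the log ratios, which equalises the wider spread of the TGFb1-Tg arrays, 10 genes were lower and 3 higher, all among the calls above, against 5.77% lower and 6.25% higher of all genes. Among the 24 genes plotted by array below, it ended the calls of Cyp1a1, Cyp2a5, Cyp2b10, Cyp2b13, Cyp3a13, Cyp4a32, Cyp4v3, Cyp39a1, Cyp51 and Cyp7b1. The 3 higher calls kept were those of Cyp11b2, Cyp4f16 and Cyp4f39. The higher calls of Cyp2c29, Cyp2d26, Cyp2j5 and Cyp2j6 therefore ended too, as did most lower calls outside the 24 genes. No cause for this was tested.

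**Figure D2:**
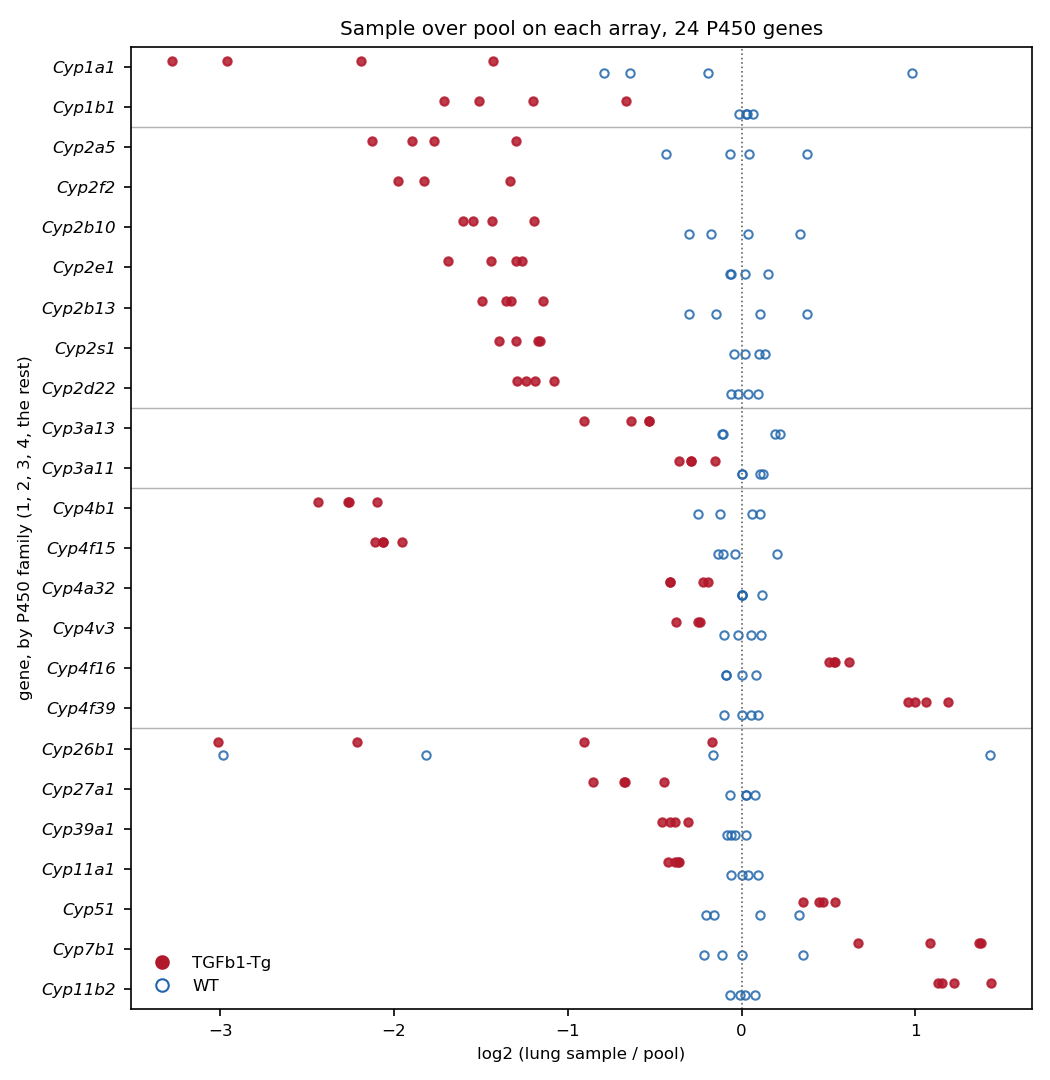
Log2 of the lung sample over the pool on each array for 24 P450 genes, by family, with the 4 TGFb1-Tg arrays as filled points above the 4 WT arrays as open points. For most genes the groups do not overlap; Cyp26b1 is spread widely in both groups, and Cyp2f2 has no WT value.

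Family 1 holds the enzymes that oxidise polycyclic aromatic compounds and are induced through the aryl hydrocarbon receptor, AHR. Both of its genes above the dim limit fell. Cyp1a1 had sample intensities of 0.1, 0.26, 0.16 and 0.07 in TGFb1-Tg lungs and of 2.88, 0.85, 0.87 and 1.32 in WT lungs. Every TGFb1-Tg lung lay below every WT lung, and the WT lungs themselves differed widely, with replicate 1 the highest. Its log2 ratio differed by -2.30 ± 0.54 (SE; 4.94-fold lower, adjusted p = 0.0131, limma), and by -1.92 (adjusted p = 0.025) without WT replicate 1. The pools moved too, at 0.68 to 0.78 on the TGFb1-Tg arrays and 1.36 to 1.51 on the WT arrays, and the direct difference was larger, at -3.28 ± 0.47 (adjusted p = 0.00103).

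Cyp1b1, which also hydroxylates oestradiol, was measured by a pair of probes to the same transcript. On the brighter probe its sample intensities were 0.36, 0.64, 0.4 and 0.44 in TGFb1-Tg lungs and 1.03, 0.89, 0.89 and 0.85 in WT lungs. The groups did not overlap, and TGFb1-Tg replicate 2 was the least reduced, as it also was for Cyp1a1. The mean of both probes fell by 1.30 ± 0.21 (SE; 2.46-fold lower, adjusted p = 0.00267, limma), with probe differences of -1.23 and -1.37. Cyp1a2, the family's liver enzyme, was dim (0.06 to 0.09 in TGFb1-Tg lungs and 0.06 to 0.1 in WT lungs) and was not called.

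The promoters of the 2 called genes are shown because both are textbook targets of AHR, which binds the xenobiotic response element core GCGTG. The 250 bases before each transcription start are from RefSeq (GRCm38.p6), Cyp1a1 at chr9:57697363-57697612 on the plus strand and Cyp1b1 at chr17:79715062-79715311 on the minus strand. Capitals mark GCGTG, read on either strand (CACGC on the other), and the TATA box TATAAA.
Cyp1a1: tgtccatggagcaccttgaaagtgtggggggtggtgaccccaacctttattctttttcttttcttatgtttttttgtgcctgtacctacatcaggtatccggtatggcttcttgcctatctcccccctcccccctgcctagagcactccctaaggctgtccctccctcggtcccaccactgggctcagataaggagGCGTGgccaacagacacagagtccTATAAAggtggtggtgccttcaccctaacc
Cyp1b1: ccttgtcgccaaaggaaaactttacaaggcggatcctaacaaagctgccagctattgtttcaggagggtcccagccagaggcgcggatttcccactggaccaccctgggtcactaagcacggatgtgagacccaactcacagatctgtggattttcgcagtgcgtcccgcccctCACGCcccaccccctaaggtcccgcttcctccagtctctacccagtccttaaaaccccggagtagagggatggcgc
In Cyp1a1 the core lies at -54 to -50 and the TATA box at -30 to -25 from the start, and in Cyp1b1 the core lies at -76 to -72. RefSeq promoters were at hand for 65 of the 85 genes, and 14 of them hold GCGTG on some strand in this window (5 of the 21 lower and 3 of the 7 higher genes), against 28.2% of 27025 promoters. TATAAA occurs in 25 of the 65 (8 of the 21 lower and 3 of the 7 higher genes), against 13% of all promoters. The 2 motifs do not overlap in these promoters.

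In family 2, whose members oxidise drugs, small toxicants and arachidonic acid, 12 of 43 tested genes fell, 4 rose and 27 did not pass. That is 27.9% lower and 9.3% higher, against 19.8% and 19% of all genes, and 37.2% either way, near the 38.8% of all genes. The gene table places on chromosome 7 a run of neighbouring family 2 genes (Cyp2s1, Cyp2b10, Cyp2b13, Cyp2b9, Cyp2a4, Cyp2b19, Cyp2g1, Cyp2a5, Cyp2a22, Cyp2a12, Cyp2f2 and Cyp2t4). Of its 11 tested genes 6 fell and none rose, and the other 5 had small differences, from -0.08 to 0.03. Of the 11 neighbouring Cyp2c genes on chromosome 19 none fell and Cyp2c29 rose slightly (0.09). Cyp2c23, which is not in that run, had 0.15, 0.11, 0.14 and 0.14 in TGFb1-Tg lungs and 0.2, 0.19, 0.17 and 0.19 in WT lungs, and fell without overlap by 0.42 (adjusted p = 0.00541, limma), with a direct difference of -0.23 (adjusted p = 0.222). Of the 9 Cyp2d genes on chromosome 15, 3 fell and 1 rose.

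Cyp2f2, the club cell enzyme that activates naphthalene, could not be compared between groups. Its probe had sample intensities of 6.68, 6.18 and 11.09 on TGFb1-Tg arrays 1, 3 and 4, with pool intensities of 23.72, 24.35 and 27.94, and no value on TGFb1-Tg array 2 or on any WT array. Over their own pool the 3 measured lungs averaged -1.71 ± 0.34 (SD, n = 3; adjusted p = 0.0132 against 0, limma over 25663 genes, of which 22.2% were lower). Over all probes, values are missing most often from bright ones: of the 718 probes with a missing value 44.4% exceeded an intensity of 20, against 0.585% of the complete probes.

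Cyp2a5, which oxidises nicotine and coumarin and is high in olfactory and airway epithelium, had on its brightest probe sample intensities of 0.92, 1.72, 1.19 and 0.97 in TGFb1-Tg lungs and of 3.76, 4.48, 2.5 and 3.93 in WT lungs. No TGFb1-Tg lung reached a WT lung. Over its 3 probes the log2 ratio differed by -1.75 ± 0.23 (SE; 3.37-fold lower, adjusted p = 0.000857, limma), and the probes gave -1.87, -1.93 and -1.45. Its near-copy Cyp2a4, a testosterone hydroxylase, had one probe of ample brightness, with 0.53, 0.87, 0.64 and 0.5 in TGFb1-Tg lungs and 1.77, 2.28, 1.25 and 1.73 in WT lungs. That probe differed by -1.84 and a dim one by -0.09, so that the gene mean of -0.97 (adjusted p = 0.00143, limma) averages unlike probes. The direct differences were -1.42 for Cyp2a5 and -0.87 for Cyp2a4.

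How alike these copies are can be read from their promoters (RefSeq, GRCm38.p6), Cyp2a4 at chr7:26306942-26307191 and Cyp2a5 at chr7:26835089-26835338, both on the plus strand. Capitals mark the bases that differ when the sequences are laid over each other with a shift of 1 base.
Cyp2a4: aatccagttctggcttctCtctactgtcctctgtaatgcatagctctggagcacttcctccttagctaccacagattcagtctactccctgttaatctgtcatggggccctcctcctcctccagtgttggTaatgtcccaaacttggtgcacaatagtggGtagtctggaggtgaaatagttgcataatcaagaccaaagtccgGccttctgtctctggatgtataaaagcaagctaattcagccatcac
Cyp2a5: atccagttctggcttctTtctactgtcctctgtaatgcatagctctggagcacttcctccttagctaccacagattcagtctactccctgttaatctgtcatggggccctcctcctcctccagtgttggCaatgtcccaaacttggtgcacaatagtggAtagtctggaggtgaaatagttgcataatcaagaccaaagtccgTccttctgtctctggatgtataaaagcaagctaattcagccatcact
They share 245 of 249 bases, and the promoters of Cyp2b9 and Cyp2b13 share 248 of 250. The Cyp2b10 promoter shares only 126 of 249 bases with that of Cyp2b9 and 125 of 249 with that of Cyp2b13. Transcripts of near-copies may cross-hybridise, which promoters do not show, and probe sequences were not used here. The split of the signal between Cyp2a4 and Cyp2a5, and among the Cyp2b genes, is therefore uncertain.

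The Cyp2b genes are phenobarbital-inducible enzymes of broad specificity. Cyp2b10 had, on its brighter probe, sample intensities of 2.46, 2.92, 3.47 and 3.04 in TGFb1-Tg lungs and of 7.11, 8.79, 5.62 and 6.8 in WT lungs. The groups lay well apart, and the log2 ratio differed by -1.42 ± 0.16 (SE; 2.67-fold lower, adjusted p = 0.0004, limma), with both probes close to this value. Cyp2b13 had 0.78, 0.93, 0.96 and 0.91 in TGFb1-Tg lungs and 1.96, 2.15, 1.28 and 1.56 in WT lungs, a difference of -1.34 ± 0.15 (adjusted p = 0.000518, limma). Of the 3 probes of Cyp2b9 the bright one differed by -1.30 and the dimmer ones by -0.13 and 0.16. For each bright Cyp2a and Cyp2b probe named here WT replicate 2 was the highest WT lung and WT replicate 3 the lowest, so that these genes varied together among the WT lungs as well; their probes may share transcripts, as above.

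Cyp2e1, which oxidises ethanol and small solvents, had sample intensities of 0.48, 0.59, 0.56 and 0.68 in TGFb1-Tg lungs and of 1.68, 2, 1.61 and 1.65 in WT lungs. The WT lungs were all above 1.6 and the TGFb1-Tg lungs all below 0.7, a difference of -1.43 ± 0.10 (SE; 2.7-fold lower, adjusted p = 6.62e-05, limma). Cyp2s1, an extrahepatic enzyme of airway epithelium, had 1.04, 1.19, 1.18 and 1.01 in TGFb1-Tg lungs and 2.44, 2.15, 2.44 and 2.3 in WT lungs, without overlap (-1.31 ± 0.07, adjusted p = 1.78e-05, limma). Cyp2d22, the closest mouse relative of the human drug-metabolising CYP2D6, had 0.67, 0.64, 0.81 and 0.64 in TGFb1-Tg lungs and 1.59, 1.66, 1.27 and 1.4 in WT lungs, again without overlap (-1.21 ± 0.05, adjusted p = 1.3e-05, limma). Cyp2j9, of the arachidonic acid epoxygenase subfamily, fell by 0.78 (adjusted p = 5.74e-05, limma), while its neighbour Cyp2j6 rose by 0.20 (adjusted p = 0.00532, limma).

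A few called differences in family 2 were small. The probe annotated to Cyp2d40 had 16.43, 17.4, 18.11 and 19.89 in TGFb1-Tg lungs and 21.33, 19.66, 17.72 and 14.49 in WT lungs, and the groups overlapped. It is tied to the gene by the symbol in the file, and its identity was not tested. Its ratio differed by -0.20 (adjusted p = 0.0398, limma), the call was lost without any of TGFb1-Tg replicates 1, 2 and 3 or WT replicates 1, 2 and 3 (adjusted p up to 0.102), and the direct difference was -0.19 (adjusted p = 0.207). Cyp2d26 (0.07) and Cyp2c29 (0.09) rose on the ratio and had direct differences of -0.17 and -0.15 (adjusted p = 0.396 and 0.407, limma), so that their direction depended on the scale. The call of Cyp2d26 was also lost without any of TGFb1-Tg replicates 2, 3 and 4 or WT replicates 3 and 4 (adjusted p up to 0.0861).

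Family 3 holds the broad drug- and steroid-oxidising enzymes of liver and gut. Only Cyp3a13 and Cyp3a11 passed the dim limit, both narrowly, and both fell. Cyp3a13 had 0.08, 0.09, 0.09 and 0.09 in TGFb1-Tg lungs and 0.16, 0.14, 0.12 and 0.13 in WT lungs, and Cyp3a11 had 0.09, 0.09, 0.07 and 0.09 in TGFb1-Tg lungs and 0.12, 0.14, 0.15 and 0.14 in WT lungs. The groups did not overlap in either gene, on intensities near the lower end of the array. The pools of Cyp3a11 lay at 0.09 to 0.11 on the TGFb1-Tg arrays and 0.11 to 0.15 on the WT arrays. Those of Cyp3a13 lay at 0.13 to 0.15 and 0.12 to 0.14. The differences were -0.70 ± 0.12 for Cyp3a13 (adjusted p = 0.00324, limma) and -0.33 ± 0.05 for Cyp3a11 (adjusted p = 0.00228, limma), and the direct difference of Cyp3a13, -0.30, was not called (adjusted p = 0.134).

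Family 4 contains fatty acid hydroxylases. Of its 13 tested genes 5 fell, 2 rose and 6 did not pass, which is 38.5% lower and 15.4% higher, against 19.8% and 19% of all genes.

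Cyp4b1, which activates pneumotoxins such as 4-ipomeanol, was the P450 gene with the most probes. The single bright probe with a value on every array had sample intensities of 4.15, 5.87, 5.46 and 5.42 in TGFb1-Tg lungs and of 22.3, 22.99, 20.85 and 26.84 in WT lungs. A dimmer probe had 0.36, 0.46, 0.37 and 0.33 in TGFb1-Tg lungs and 1.8, 1.56, 1.05 and 1.43 in WT lungs. The groups were far apart on both. Of the other bright probes, one had values of 4.79, 7.09, 5.17 and 5.53 in TGFb1-Tg lungs and values only on WT arrays 2 and 4, at 23.34 and 27.94. The last had values of 6.82 to 8.33 in TGFb1-Tg lungs and none on the WT arrays. The 3 probes with values in both groups differed by -2.50, -2.43 and -2.19, and the gene by -2.21 ± 0.10 (SE; 4.64-fold lower, adjusted p = 1.37e-05, limma), with a direct difference of -2.14. The gene value averages the probes present on each array, which were fewer on the WT arrays. Complete probes alone gave -2.31. On 3 or 4 arrays the bright probes came to 90% or more of that channel's top reading, where readings may be compressed; this was not tested.

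**Figure D3:**
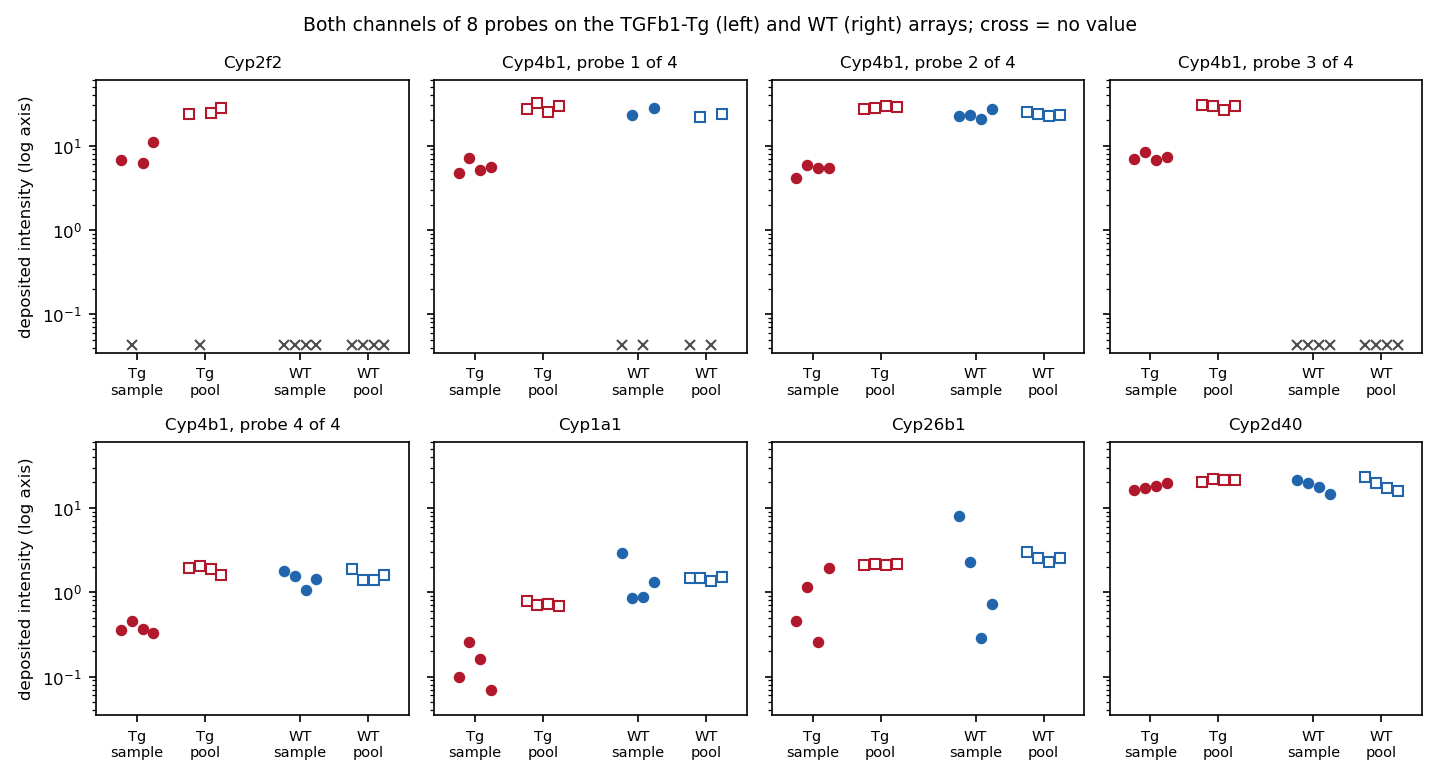
Deposited intensities (log axis) of the lung sample (filled circles) and the pool (open squares) for 8 P450 probes, TGFb1-Tg arrays left and WT arrays right; crosses at the bottom mark arrays with no value. Cyp2f2 and 1 Cyp4b1 probe have no WT value, the Cyp1a1 pools differ between the array sets, and the Cyp26b1 samples are spread while their pools are not.

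The products of the Cyp4f genes hydroxylate leukotrienes and long-chain fatty acids. Of the 6 Cyp4f genes that lie side by side on chromosome 17, 2 fell, 2 rose and 2 did not pass, and Cyp4f18, which is not in that run, did not pass (-0.13, adjusted p = 0.316, limma). Cyp4f15 had sample intensities of 0.16, 0.17, 0.16 and 0.16 in TGFb1-Tg lungs and of 0.77, 0.6, 0.71 and 0.65 in WT lungs. The TGFb1-Tg lungs were almost identical and far below the WT lungs (-2.03 ± 0.08 SE, 4.08-fold lower, adjusted p = 8.36e-06, limma; direct difference -2.02). Cyp4f39, which in humans corresponds to a skin ceramide enzyme, had 0.71, 0.6, 0.62 and 0.73 in TGFb1-Tg lungs and 0.27, 0.28, 0.3 and 0.32 in WT lungs, all TGFb1-Tg lungs being higher (1.04 ± 0.06 SE, 2.06-fold higher, adjusted p = 3.33e-05, limma; direct difference 1.17). Cyp4f16 had 0.39, 0.43, 0.45 and 0.44 in TGFb1-Tg lungs and 0.33, 0.32, 0.35 and 0.32 in WT lungs, and its pool was lower on the TGFb1-Tg arrays (0.27 to 0.31) than on the WT arrays (0.33 to 0.34). It rose by 0.57 ± 0.05 (adjusted p = 0.000103, limma), and by 0.39 in the direct comparison. Cyp4f13 fell by 0.17 (adjusted p = 0.00135, limma), with a direct difference of -0.21 (adjusted p = 0.0552).

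Cyp4v3 and Cyp4a32 were also called. Cyp4v3, a fatty acid hydroxylase of the eye and other tissues, had 1.87, 2.1 and 2.35 on TGFb1-Tg arrays 1 to 3, no value on array 4, and 2.51, 2.52, 2.31 and 2.25 in WT lungs. The sample intensities overlapped while the ratios did not, and the difference was -0.30 ± 0.06 over 3 and 4 arrays (adjusted p = 0.0105, limma). Cyp4a32 had 0.07, 0.06, 0.06 and 0.06 in TGFb1-Tg lungs and 0.15, 0.14, 0.13 and 0.11 in WT lungs (-0.34 ± 0.06, adjusted p = 0.00466, limma; direct difference -0.69). Its pools differed in much the same way, at 0.07 to 0.08 on the TGFb1-Tg arrays and 0.11 to 0.15 on the WT arrays. Cyp4a32 reached the limit of 0.1 only on the WT arrays, and all its TGFb1-Tg intensities lay below it, so that the size of its difference is uncertain.

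The 19 other genes split evenly above the dim limit, with 3 lower, 3 higher and 7 not called of 13. That is 23.1% lower and 23.1% higher (46.2% either way), near the 26.3% and 25% (51.3%) of all genes this bright. The 19 genes are mostly sterol, steroid, retinoid and vitamin D enzymes.

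Among the sterol enzymes, Cyp27a1, the mitochondrial enzyme that starts the side-chain oxidation of cholesterol, had 1.33, 1.31, 1.54 and 1.15 in TGFb1-Tg lungs and 1.83, 2.08, 1.83 and 1.84 in WT lungs. It fell without overlap by 0.68 ± 0.08 (SE; 1.6-fold lower, adjusted p = 0.000698, limma), with a direct difference of -0.72. Cyp39a1, an oxysterol hydroxylase of bile acid synthesis, had 0.99, 0.94, 1.05 and 0.98 in TGFb1-Tg lungs and 1.13, 1.11, 0.97 and 1.13 in WT lungs. Its samples overlapped and its ratio differed by -0.35 ± 0.04 (adjusted p = 0.000393, limma; direct difference -0.29, but 0.16 where sample channels were centred on their median only).

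Cyp7b1, which hydroxylates 25-hydroxycholesterol and dehydroepiandrosterone, had 1.21, 1.56, 0.89 and 1.47 in TGFb1-Tg lungs and 0.69, 0.48, 0.43 and 0.49 in WT lungs. All TGFb1-Tg lungs were higher, and its ratio rose by 1.12 ± 0.19 (SE; 2.17-fold higher, adjusted p = 0.00343, limma; direct difference 1.17). Cyp51, the lanosterol demethylase of cholesterol synthesis, had 1.81, 2.03, 1.88 and 1.8 in TGFb1-Tg lungs and 1.91, 1.25, 1.21 and 1.57 in WT lungs, where WT replicate 1 lay among the TGFb1-Tg lungs. Its ratio rose by 0.43 ± 0.12 (adjusted p = 0.0281, limma). That call was lost without any of TGFb1-Tg replicates 2, 3 and 4 or WT replicates 2, 3 and 4 (adjusted p up to 0.0758), and the direct difference was 0.16 (adjusted p = 0.386).

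Among the steroidogenic genes, the probe annotated to Cyp11b2, aldosterone synthase, had 4.73, 3.73, 3.67 and 3.58 in TGFb1-Tg lungs and 1.74, 1.48, 1.57 and 1.68 in WT lungs. Every TGFb1-Tg lung was above every WT lung, and its ratio rose by 1.23 ± 0.07 (SE; 2.34-fold higher, adjusted p = 2.92e-05, limma; direct difference 1.05). The probe is tied to the gene by the symbol in the file alone, so its identity was not tested. The neighbouring enzyme Cyp11b1 was dim to low (0.08 to 0.11 in TGFb1-Tg lungs and 0.13 to 0.28 in WT lungs) and was not called. Its pools lay at 0.08 to 0.12 on the TGFb1-Tg arrays and 0.13 to 0.28 on the WT arrays. Cyp11a1, the side-chain cleavage enzyme that opens steroid synthesis, had on its brighter probe 0.13, 0.12, 0.1 and 0.11 in TGFb1-Tg lungs and 0.21, 0.2, 0.21 and 0.18 in WT lungs, without overlap. The mean of its probes fell by 0.40 ± 0.03 (adjusted p = 0.000133, limma; direct difference -0.28), and of its probes one alone was not called (-0.23, adjusted p = 0.0617, limma). The sex steroid enzymes Cyp17a1 and Cyp19a1 were dim and not called on the ratio, and the direct difference of Cyp17a1 was 0.59 (adjusted p = 0.0358, limma).

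Cyp26b1, which degrades retinoic acid, was the most variable of the P450 genes reported. Its sample intensities were 0.45, 1.15, 0.26 and 1.92 in TGFb1-Tg lungs and 8.08, 2.27, 0.29 and 0.72 in WT lungs, while its pool stayed between 2.09 and 2.16 on the TGFb1-Tg arrays and between 2.29 and 3 on the WT arrays. The groups overlapped, and the spread within each was wide, with SDs of the log2 ratio of 1.28 and 1.93 (n = 4 each). The deposited p-value was under 0.01 on 3 arrays of each group, so that single lungs differed from their pool. The difference of -0.69 ± 1.08 (adjusted p = 0.658, limma) was not called and turned to 0.08 without WT replicate 1. Of the other retinoid hydroxylases, Cyp26c1 had a difference of 0.01 and Cyp26a1 was dim; neither was called. Cyp20a1, an enzyme without a known substrate, had 3.34, 3.71, 3.61 and 3.71 in TGFb1-Tg lungs and 3.06, 2.86, 2.75 and 3.16 in WT lungs, but its ratio did not differ (-0.02 ± 0.03, adjusted p = 0.558, limma), and the pools lay at 3.41 to 3.78 on the TGFb1-Tg arrays and 2.76 to 3.06 on the WT arrays.

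**Figure D4:**
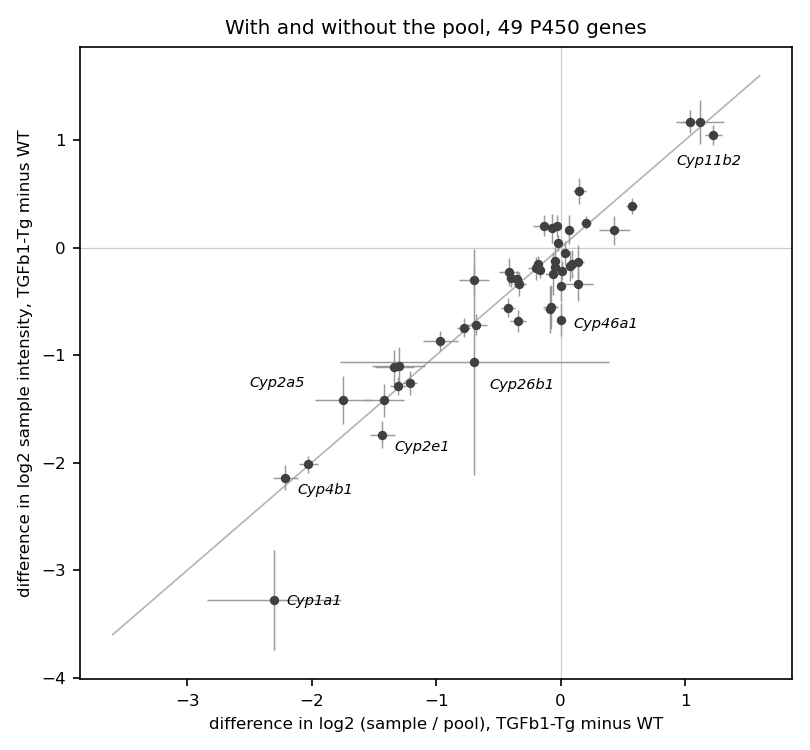
Direct difference in log2 sample intensity (vertical) against the difference in log2 (sample over pool) (horizontal), both TGFb1-Tg minus WT with standard errors, for the 49 tested P450 genes that reach an intensity of 0.1 and have complete probes. Most points lie near the line of equality; Cyp1a1 lies below it, and Cyp46a1 is near 0 only on the ratio.

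Between the pools of the array sets, Cyp1a1 (-1.15) and Cyp46a1 (-0.68) of 49 genes differed by more than 0.5 after quantile normalization, TGFb1-Tg set minus WT set. Cyp26b1 (-0.499), Cyp11b1 (-0.498) and Cyp2g1 (-0.498) lay just under that limit. Where the pools were centred on their median only, 10 genes passed it. Cyp46a1, the brain cholesterol hydroxylase, had 0.34, 0.28, 0.29 and 0.27 in TGFb1-Tg lungs and 0.39, 0.47, 0.63 and 0.41 in WT lungs. Its ratio did not differ (0.01, adjusted p = 0.895, limma) and its direct difference was called (-0.67, adjusted p = 0.0103, limma).

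Genes that supply, control or follow the P450 enzymes also moved in both directions, with 17 lower and 10 higher of 42 tested, where 19.8% of all genes were lower and 19% higher. These counts depended on the scaling, with 6 lower and 3 higher after quantile normalization of the log ratios, and 7 lower and 13 higher of 41 where the sample channel was centred on its median. Of the 10 genes for microsomal electron supply and haem, 5 fell and 4 rose. Por, the oxidoreductase that reduces every microsomal P450, had 7.58, 8.23, 8.07 and 7.2 in TGFb1-Tg lungs and 16.72, 12.29, 11.9 and 12.87 in WT lungs, without overlap (-0.93 ± 0.06 SE, adjusted p = 4.29e-05, limma; direct difference -1.04). Pgrmc1, a haem-binding partner of P450 enzymes (-0.93), and Alas1, the enzyme that limits haem synthesis (-0.83), fell as well, as did Pgrmc2 (-0.37). Cytochrome b5, Cyb5a, fell by 0.56 (adjusted p = 0.0198, limma, without a value on TGFb1-Tg array 4), a call lost without TGFb1-Tg replicate 1 or 3 or WT replicate 2 (adjusted p up to 0.0717).

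The haem oxygenases, which break haem down, rose: Hmox1, the inducible one, had 4.85, 5.57, 5.16 and 5.43 in TGFb1-Tg lungs and 2.52, 2.54, 2.37 and 2.6 in WT lungs (0.52 ± 0.04, adjusted p = 5.53e-05, limma; direct difference 0.83), and Hmox2 differed by 0.34 (direct difference 0.17, adjusted p = 0.27). Cyb5b rose by 0.24. Cyb5r3 rose by 0.21 (adjusted p = 0.0327, limma), a call lost without any array but WT replicate 3 (adjusted p up to 0.0856). Of the 3 tested mitochondrial donors, ferredoxin Fdx1 fell by 0.33 (adjusted p = 0.0152, limma) and Fdxr and Fdx2 were not called.

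**Figure D5:**
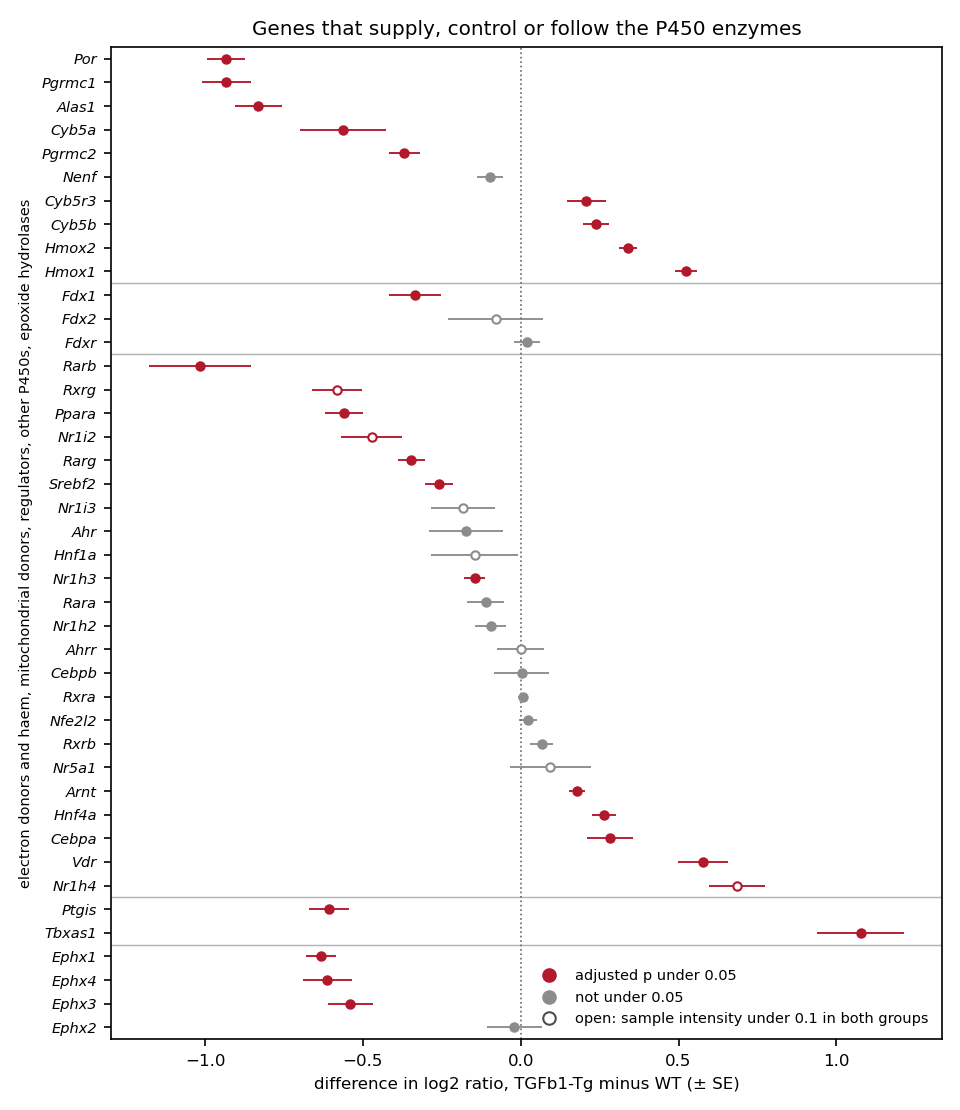
Difference in log2 (sample over pool), TGFb1-Tg minus WT, with its standard error, for 42 genes that supply electrons or haem, regulate P450 genes, are P450 enzymes with other symbols, or hydrolyse epoxides. Por, Pgrmc1, Alas1 and Rarb lie furthest to the left and Tbxas1 furthest to the right.

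Of 23 regulators of P450 genes, 7 fell and 5 rose, where 19.8% of all genes tested were lower and 19% higher. On the direct scale 9 were lower and 2 higher, against 15.2% lower and 18% higher of all genes. Ahr had 6.73, 4.49, 5.61 and 4.95 in TGFb1-Tg lungs and 4.45, 4.26, 5.3 and 4.54 in WT lungs, overlapping and not called (-0.17 ± 0.12, adjusted p = 0.306, limma); its partner Arnt differed by 0.18 on the ratio and by -0.01 directly. The retinoic acid receptor Rarb fell by 1.02 (adjusted p = 0.0023, limma), and Rarg (-0.35) and the fatty acid receptor Ppara (-0.56) fell too. The vitamin D receptor Vdr rose by 0.58 (adjusted p = 0.00116, limma), and Cyp24a1, its classical target, was dim and not called. Srebf2, the regulator of cholesterol synthesis genes, fell by 0.26 (adjusted p = 0.0037, limma). The xenobiotic receptors Nr1i2 (-0.47) and Nr1i3 (-0.18, not called) were dim in both groups.

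P450 enzymes with other symbols went apart: Ptgis, prostacyclin synthase, fell by 0.61 (adjusted p = 0.000335, limma), and Tbxas1, thromboxane synthase, rose by 1.08 (adjusted p = 0.000817, limma). Of the 4 epoxide hydrolases, which open the epoxides that P450 enzymes make, 3 fell: Ephx1 by 0.63, Ephx4 by 0.61 and Ephx3 by 0.54, while Ephx2 did not pass (-0.02).

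Markers of several cell types moved with these results, where 19.8% of all genes tested were lower and 19% higher. The summed intensities below are descriptions in which the brightest markers weigh most. All 9 tested club cell markers fell, with a median difference of -1.62, and their summed sample intensity was 27.01 to 30.23 in TGFb1-Tg lungs and 66.48 to 78.4 in WT lungs; Scgb1a1, Scgb3a2 and Aldh1a1 were bright and had no WT value. All 8 ciliated markers fell (9.28 to 10.97 in TGFb1-Tg lungs, 15.12 to 17.4 in WT lungs), as did 8 of 10 endothelial markers (54.31 to 58.27 in TGFb1-Tg lungs, 71.29 to 78.3 in WT lungs), 5 of 5 smooth muscle markers and 4 of 5 adipocyte markers. Of the 5 tested fibroblast markers 3 rose and 2 fell. Among 5 alveolar type 2 markers 3 rose, but only Napsa was called on the direct scale. There Lamp3 was at -0.16 (adjusted p = 0.337, limma) and Lpcat1 had no value. All 7 markers of recruited macrophages rose (34.68 to 39.1 in TGFb1-Tg lungs, 12.95 to 15.98 in WT lungs). Of the 5 tested alveolar type 1 markers 1, Clic5, fell. On the direct scale Clic5 was not called (-0.29, adjusted p = 0.215, limma) and Pdpn was higher (0.56, adjusted p = 0.023, limma). Among 5 alveolar macrophage markers 1 rose and 1 fell, and only the lower one, Fabp4, was called on the direct scale. The hepatocyte marker albumin was near the lower end in both groups (Alb, 0.05 to 0.15 in TGFb1-Tg lungs and 0.08 to 0.09 in WT lungs), and 1 of 7 hepatocyte markers rose and 1, Fabp1, fell. The part of these changes in the P450 results was not tested.

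Other P450 symbols on the array did not meet the rule because of a longer name. Cyp4a12a (-0.80) and Cyp4a12b (-1.08), arachidonic acid hydroxylases, and Cyp2ab1 (-0.41) were lower, and Cyp2a21-ps, Cyp3a41a and Cyp4a30b were not called.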

How the data were processed

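Lung RNA of 4 TGFb1-Tg and 4 WT mice was measured on 2-colour arrays. Per the labels' protocols, RNA was extracted with Trizol and 100 ng went through repeated RT and IVT amplification; the submitters' processing notes name Agilent Feature Extraction 8.5.1.1 without its background or dye settings. Each deposited intensity is a value scaled before deposit and rounded to 2 decimals, so that dim ratios move in steps and tend to 0. The deposited p-value per probe served as a description only. Log10 ratios in the authors' value table equalled log10 of sample over pool within 0.002 for at least 99.99% of probes, with a median of 0 on every array, which settles scale, centring and direction.

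A RefSeq accession named 38 of the 102 P450 probes, 63 carried a symbol still in use in the GRCm38.p6 table, and 1 symbol was updated (to Cyp2c23); no build of the files was used. Probes of a gene were averaged. The test on log2 (sample over pool) was limma's (lmFit and eBayes, version 3.58.1, R 4.3.3), two-sided, for the 25647 genes with 2 or more values in each group, with Benjamini-Hochberg adjustment. The direct difference uses complete probes after quantile normalization of the sample channel, a setting added after the data were seen, because centring each array on its median shifted genes reaching an intensity of 1 by 0.49 in the median. Values in every sample are given for up to 6 called genes per family with the largest difference and a mean intensity of at least 0.1, for genes with a probe both missing on some array and over 20, and for 10 genes known from lung, 24 in all; those that opposed their family or were not called at an intensity of 1 or more may be named too, and other genes were named after their values were seen. The members, lists and rules were chosen with earlier results of these data known.

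Replicates carry separate numbers in the labels, and where nothing says that they are separate animals the p-values measure only the spread between these samples. The number of arrays limits the precision; the median standard error was 0.0635 for the P450 genes and 0.0555 for all genes. The fit was also run on simulated data with normal noise (25303 genes), in which 80, 80 and 40 genes changed by 0.5, 1 and 2 (log2). It found 71.2% of changes of 0.5, 87.5% of changes of 1 and 95% of changes of 2, and made 5 false calls. In the measured data 9956 of 25647 genes were called and dim values are rounded, so these figures need not carry over. Python 3.11.15, pandas 2.3.3 and matplotlib 3.10.9 were used for tables and figures.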

Additional observations from a re-analysis of the deposited data

Results flagged for a closer look

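In 7 of the 95 groups of 4 log2 ratios tested over the P450 genes with an intensity of at least 0.1, 1 array stood far from the other 3 by Dixon's criterion; chance alone flags about 1 in 20 groups. In 5 of them the other 3 arrays were at exactly 0, since the intensities have 2 decimals: Cyp11b1 on WT array 4 (0.0931), Cyp2c50 on TGFb1-Tg array 2 (-0.0402), Cyp2d11 on WT array 3 (0.115), Cyp46a1 on TGFb1-Tg array 3 (0.0506) and Cyp4a32 on WT array 3 (0.115). The others were Cyp2d26 on TGFb1-Tg array 1 (0, against 0.07 to 0.08) and Cyp2c54 on WT array 3 (-0.0324, against 0.04 to 0.05).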

How the results depend on the processing

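With each array left out in turn, 23 to 25 P450 genes were lower and 6 to 8 higher, and 16 to 19 of the partner genes were lower and 8 to 10 higher. Quantile normalization of the log ratios left 10 lower and 3 higher P450 genes, and 6 lower and 3 higher partner genes. Partner genes called lower numbered 7 with the median-centred sample channel, and those called higher 5 with its quantile-normalized form, which was added after the data were seen. The difference of Cyp39a1 reversed to 0.16 with the median-centred sample channel, where the call of Cyp27a1 also ended (-0.23, adjusted p = 0.168, limma), and that of Cyp26b1 to 0.0769 without WT replicate 1 (leaving out each array in turn gave -1.39 to 0.0769); the cause was not tested. The replicate block (replicate number as a block, although same-numbered arrays did not deviate together, with correlations of -0.026 to 0.04) gave 21 lower and 9 higher of 83 P450 genes and ended the calls of Cyp1a1 (adjusted p = 0.0698, limma) and Cyp51 (adjusted p = 0.0924, limma). The value table, the offset of 0.05, the filter on dim genes, complete probes, trend with robust moderation and the file's own symbols kept the direction and the call of every gene named in full and tested there. The median pool difference over the P450 genes was 0.02 and, after quantile normalization, -0.04. Dim probes are limited by the 2 decimals of the deposited values, and bright ones by missing values.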
